A study of Mus musculus with 6 samples.

Results

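Gsdmc2, Gsdmc3, Gsdmc4 and Gsdmd, 4 genes of the gasdermin family, were followed across cell types, cell cycle states, barcode depths and genotypes in Drop-seq data of mouse small-intestinal crypts. They are 4 of the 19178 genes counted, and 4 of the 9 gasdermin genes and pseudogenes with at least 1 count. The genes were selected on their counts in these tables, since earlier results showed them in transit cells, the dividing and early differentiating cells between stem cells and mature enterocytes. Their levels by cell type, cell cycle state and depth are therefore given as a description without a test. Genotype played no part in the selection and was tested.

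Gasdermins are pore-forming proteins that stay inactive until a protease cuts the linker between their amino-terminal and carboxy-terminal domains. The freed amino-terminal part forms pores in the plasma membrane, through which cytokines such as interleukin-18 leave the cell and which can end in lytic death. Gsdmd is the substrate of the inflammatory caspases encoded by Casp1 and Casp4 and is made in the intestinal epithelium. The Gsdmc genes are a rodent-expanded group that the gut epithelium is known to raise in response to type 2 cytokines.

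Freshly isolated crypts of the small intestine of C57BL6 mice aged 10 weeks were dissociated with trypsin after EDTA release, and single cells were captured by Drop-seq, in which barcoded beads count molecules near the 3′ end of polyadenylated RNA. Knockout mice carried an ablation of Ptger4, the prostaglandin E2 receptor EP4, restricted to epithelial cells, and flox mice were their controls. The driver of the deletion is not given in the sources used here. No mouse or cell was treated. Each genotype has 3 collections from 2 biological replicates: by the sample codes, collections 1 and 2 of a genotype come from biological replicate 1 and collection 3 from biological replicate 2.

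Kept barcodes had at least 300 genes and at most 25% mitochondrial counts, which left 4890 of 13191 barcodes, 473 to 1053 per collection, with 1028412 to 3020164 counts per collection. Clustering, from which gasdermin genes were left out, gave 16 clusters, 15 of them with at least 20 cells. Clusters 9 and 12 were B or plasma-like and T or NK-like, and the 4502 cells of all other clusters are called epithelial. Of the kept barcodes, 133 occurred in more than 1 collection. Sharing was found only within a set of knockout 1, flox 1 and flox 2, called set A, and within a set of knockout 2, knockout 3 and flox 3, called set B. Xist, which is transcribed in female cells, had 1584 counts in knockout 3, 1457 in flox 3 and at most 11 in each other collection. Ptger4 stood at 17.4, 19.1 and 24.5 CPM (a gene's counts scaled to a total of 1000000 counts) in the collections labelled knockout and at 11.9, 13.6 and 15.1 CPM in the flox collections. The deleted part of Ptger4 is not given in the sources used here, and 3′ counts outside it would not check the labels.

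Gsdmc2, Gsdmc3 and Gsdmc4 lie side by side on chromosome 15 of GRCm38 (mm10), all on the minus strand. Gsdmc2 (ENSMUSG00000056293.12) spans 63824346 to 63845177, Gsdmc3 (ENSMUSG00000055827.13) spans 63857724 to 63878558, and Gsdmc4 (ENSMUSG00000055748.12) spans 63891264 to 63912297. The pseudogenes Gsdmcl1 and Gsdmcl2 sit between them, and Gsdmc, the founding member of the group, lies at 63775968 to 63808759. Gsdmd (ENSMUSG00000022575.5) lies on the plus strand of the same chromosome at 75862327 to 75867408. The coding sequences of Gsdmc2 and Gsdmc3 are 97.1% identical, and each is 93.0% identical to that of Gsdmc4. Gsdmd is 51.7% identical to Gsdmc2.

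The last 90 coding bases, stop codon included, are shown because near-identical 3′ ends decide how far a 3′ count can be given to 1 gene. They are from the GENCODE vM21 transcripts and read 5′ to 3′, and capitals mark the 5 positions at which the 3 genes are not all the same.
Gsdmc2: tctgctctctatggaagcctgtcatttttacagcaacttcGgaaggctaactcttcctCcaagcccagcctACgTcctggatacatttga
Gsdmc3: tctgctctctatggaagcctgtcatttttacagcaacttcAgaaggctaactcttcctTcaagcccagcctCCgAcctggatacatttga
Gsdmc4: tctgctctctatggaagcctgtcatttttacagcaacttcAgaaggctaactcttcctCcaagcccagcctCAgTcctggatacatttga
Gsdmc2 and Gsdmc3 differ at 4 of these positions, and Gsdmc4 differs from each of them at 3. Over the last 400 transcript bases, 244 of 351 windows of 50 bases in Gsdmc2 (69.5%) also occurred in another gasdermin transcript, against 48.7% in Gsdmc3, 9.12% in Gsdmc4 and 0 in Gsdmd. Neither read length nor the handling of reads that fit several genes is stated in the sources used here, so the split of counts between Gsdmc2 and Gsdmc3 is uncertain.

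Gsdmc4 had 1731 counts over all kept cells, Gsdmc2 had 1146, Gsdmd had 508 and Gsdmc3 had 126. Gsdmc4 was seen in 832 of 4890 cells (17.0%), Gsdmc2 in 655 (13.4%), Gsdmd in 400 (8.18%) and Gsdmc3 in 112 (2.29%). Most positive cells had a single count: 61.4% of those with Gsdmc4, 63.5% with Gsdmc2 and 83.2% with Gsdmd. Cells with 5 or more counts numbered 65 for Gsdmc4 and held 33.6% of its counts. The cell with most Gsdmc4 and the cell with most Gsdmc2 were the same goblet-like barcode, with 37 and 22 counts of its 104905. Of the other family members, Dfna5, the older symbol of Gsdme, had 223 counts, Gsdma2 had 16, Gsdmc had 8, Gsdma had 3 and Gsdmcl2 had 2.

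Gsdmc2 and Gsdmc4 were highest in clusters 4 and 6, which met the criteria of no named cell type. These clusters were led by Reg3g, Reg3b and Fabp6 (cluster 4, 499 cells) and by Car4, Apol10a and Hkdc1 (cluster 6, 359 cells). Gsdmc2 also stood among the 10 leading genes of both clusters, and Gsdmc4 among those of cluster 6. The list of transit and early enterocyte markers was not used for naming, so no cluster could get that name. Of its markers, 4 of 11 were enriched in cluster 4 and 5 of 11 in cluster 6. These numbers are not particular to clusters 4 and 6. Cycling-like cluster 10 had 6 of 11, and cycling-like cluster 11 and stem-like cluster 2 had 4 of 11 each. Of the enterocyte markers, 2 of 20 were enriched in cluster 4 and 5 of 20 in cluster 6. The proliferation gene Mki67 was at 180 and 201 CPM there, against 1411 and 1016 CPM in the cycling-like clusters 10 and 11. The stem cell receptor gene Lgr5 was at 2.50 and 3.30 CPM, against 51.0 CPM in stem-like cluster 2. The label of transit cells thus covers a share of the signal only. Clusters 4 and 6 held 16.1% and 23.3% of Gsdmc2 counts with 6.98% and 10.6% of all counts, and cycling-like cluster 11 held 20.1% with 13.3%.

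Gsdmc4 stood at 341 CPM in cluster 4, and its 6 collections gave 294, 510 and 365 CPM in knockout and 211, 143 and 501 CPM in flox. In cluster 6 it stood at 324 CPM, with collections from 197 to 566 CPM. Knockout and flox collections overlapped in both clusters. The stem-like cluster 2 held 48.1 CPM of Gsdmc4, with collections from 21.0 to 94.2 CPM, so that cluster 4 was 7.08-fold higher and was the higher in 6 of 6 collections. The enterocyte-like cluster 3, led by Apoa1 and Fabp1, held 135 CPM with collections from 9.52 to 305 CPM, and cluster 4 was above it in 6 of 6 collections.

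Gsdmc2 followed the same order at the top. It stood at 230 CPM in cluster 4 with collections of 259, 342 and 166 CPM in knockout and 91.6, 167 and 312 CPM in flox, and at 220 CPM in cluster 6. It was 6.94-fold higher in cluster 4 than in the stem-like cluster 2, where it stood at 33.2 CPM. Against the enterocyte-like cluster it was 3.98-fold higher, again in 6 of 6 collections.

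Ordered by level, Gsdmc4 went from clusters 4 and 6 to cycling-like cluster 11 (230 CPM), goblet-like cluster 8 (177 CPM), cycling-like cluster 10 (145 CPM), Paneth-like cluster 13 (138 CPM), enterocyte-like cluster 3 (135 CPM) and stem-like cluster 5 (109 CPM). Cluster 1 (57.6 CPM), whose leading genes are Gm26917, Snord13 and Rn7sk and whose median is 798 counts, came next, followed by stem-like cluster 2 (48.1 CPM), enteroendocrine-like cluster 14 (44.7 CPM) and goblet-like cluster 7 (25.5 CPM). Wherever 2 neighbours in this order each had at least 2 collections of 20 or more cells, the ranges of their collections met, so no such step exceeded the spread. The T or NK-like cluster gave 34.9 CPM from 5 counts, the B or plasma-like cluster 21.4 CPM from 5 counts and the tuft-like cluster 9.03 CPM from 1 count. The lymphocyte clusters, which should lack the Gsdmc genes, are used below as a background. Whether their few counts come from free RNA, doublets or misplaced cells was not tested. Barcodes with under 100 counts, which hold mostly such RNA or cell fragments, gave 137 CPM of Gsdmc4 (95% Poisson interval 93.5 to 193, counting error only), 51.3 CPM of Gsdmc2 and 47.0 CPM of Gsdmd. Most of their 234099 counts came from flox 2 (110836), knockout 1 (66115) and knockout 2 (42825). Gsdmc4 was at 54.1, 166 and 210 CPM in these collections, so the pooled value is no common background of all 6 collections. The part of free RNA in the middle of the order, where clusters lie near or under the pooled levels, was not tested.

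**Figure D1:**
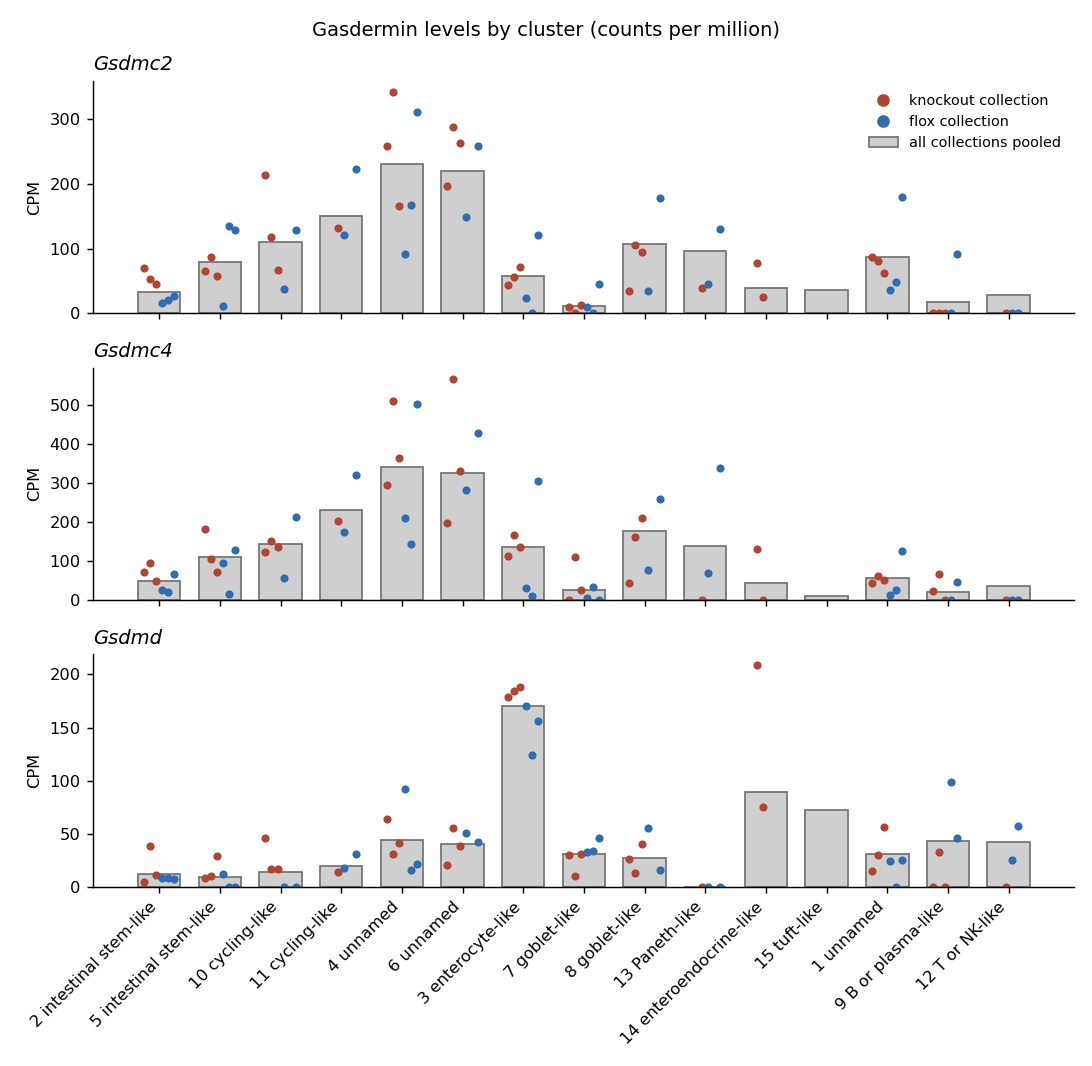
CPM of Gsdmc2, Gsdmc4 and Gsdmd (y axes) in the 15 clusters with at least 20 cells (x axis). Grey bars pool all collections and points are single collections with at least 20 cells of the cluster (red knockout, blue flox). Gsdmc2 and Gsdmc4 peak in clusters 4 and 6, at 230 and 341 CPM in cluster 4, and Gsdmd peaks in enterocyte-like cluster 3 at 171 CPM.

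Shares of positive cells depend on depth, and cluster 11, with a median of 4907 counts, had the largest share of cells with Gsdmc4 (56.6%) and Gsdmc2 (48.7%). Unthinned, Gsdmc4 was seen in 32.5% of cluster 4, 39.8% of cluster 6 and 11.2% of stem-like cluster 2. With each cell thinned to 500 counts and shallower cells left out, Gsdmc4 was seen in 12.2% of cluster 11, 13.2% of cluster 4 and 12.6% of cluster 6. The same thinning gave 6.33% in goblet-like cluster 8, 3.14% in enterocyte-like cluster 3, 2.06% in stem-like cluster 2 2.39% in cycling-like cluster 10 and 0.515% (1 of 194 cells) in the B or plasma-like cluster. Gsdmc2 was seen in 14.1% of thinned cells of cluster 6, 8.30% of cluster 4, 8.99% of cluster 11 and 0.936% of stem-like cluster 2. Its background was 0 of 194 B or plasma-like cells, which allows a share of up to 1.55%, and 2.22% of T or NK-like cells (3 of 135). For Gsdmc2, stem-like cluster 2 was not above these lymphocyte shares.

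The 2 goblet-like clusters differed in their Gsdmc levels. Cluster 8, led by Muc2, Clca3 and Ccl9 and with Mki67 at 722 CPM, held 107 CPM of Gsdmc2 and 177 CPM of Gsdmc4. Cluster 7, led by Zg16, Agr2 and Ccl6 and with Mki67 at 129 CPM, held 11.5 and 25.5 CPM. Both genes were higher in cluster 8 in 5 of 5 collections with enough cells, 9.32-fold for Gsdmc2 and 6.93-fold for Gsdmc4 when pooled. Gsdmd did not share this pattern, at 26.6 CPM in cluster 8 and 30.6 CPM in cluster 7. Leaving out the 27 barcodes over 20000 counts, 2 of them in cluster 8, left cluster 8 at 99.5 CPM of Gsdmc2 and 164 CPM of Gsdmc4. Leading genes of clusters 4 and 6 were also higher in cluster 8 than in cluster 7. Car4 was at 93.8 against 11.5 CPM, Apol10a at 201 against 61.3 CPM and Fabp6 at 2243 against 930 CPM. Muc2 was lower in cluster 8, at 2855 against 6156 CPM. Whether doublets or RNA of absorptive cells bear on the Gsdmc levels of cluster 8 was not tested.

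To place the genes along differentiation, 2805 cells of clusters 2, 5, 10, 11, 4, 6 and 3 were put in 6 equal parts by their share of counts in 17 enterocyte markers, the Reg genes left out; this division was chosen after the data were seen. Lgr5 was at 61.8 CPM in the lowest part and 3.51 CPM in the highest, and Mki67 at 840 and 49.1 CPM. The lipid carrier gene Fabp1 went from 2.69 to 2997 CPM and Krt20, a keratin of differentiated cells, from 4.03 to 1635 CPM. By Lgr5 and Mki67, the order of parts ran from stem and dividing cells towards cells low in both. A rise of any of the 17 list genes along this order is built in.

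Gsdmc4 rose and fell along this order, at 48.4, 85.8, 166, 296, 330 and 99.9 CPM. Part 5 was above part 1 and above part 6 in 6 of 6 collections. Gsdmc2 stood at 59.1, 59.1, 124, 194, 178 and 47.3 CPM, with part 4 above part 1 and above part 6 in 6 of 6 collections. Mki67 was at 472 CPM in part 4, where Gsdmc2 was highest, and at 176 CPM in part 5, where Gsdmc4 was highest. Fabp1 was at 36.7 and 104 CPM in parts 4 and 5, below its level in part 6.

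**Figure D2:**
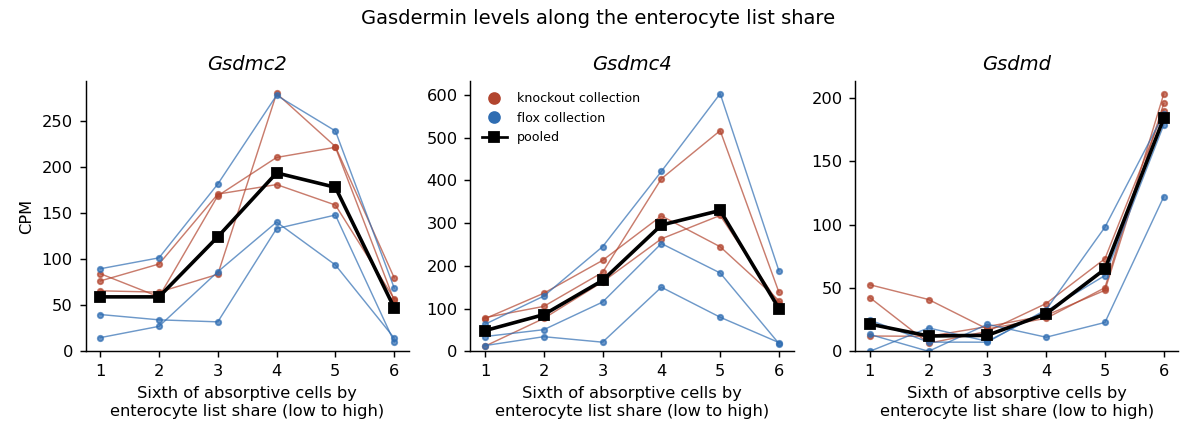
CPM of Gsdmc2, Gsdmc4 and Gsdmd (y axes) in 6 equal parts of 2805 absorptive cells ordered by their enterocyte list share (x axis, low to high). Thin lines are single collections (red knockout, blue flox) and the black line pools them; Gsdmc4 reaches 330 CPM in part 5 and falls to 99.9 CPM in part 6, where Gsdmd reaches 184 CPM.

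Gsdmd had another distribution. It was highest in the enterocyte-like cluster 3 at 171 CPM, where the knockout collections gave 179, 185 and 188 CPM and the flox collections 171, 124 and 156 CPM. The enterocyte-like cluster held 47.6% of all Gsdmd counts with 10.5% of the cells. Cycling-like clusters 11 and 10 held 19.0 and 13.4 CPM and stem-like clusters 2 and 5 held 12.4 and 9.40 CPM; the label of transit cells did not hold for Gsdmd. The enterocyte-like level was 13.8-fold that of stem-like cluster 2 and the higher in 6 of 6 collections.

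Between these ends, Gsdmd stood at 89.5 CPM in the enteroendocrine-like cluster (16 counts), 72.2 CPM in the tuft-like cluster (8 counts), 43.8 CPM in cluster 4, 40.5 CPM in cluster 6 and 30.6 and 26.6 CPM in the goblet-like clusters. Ranges over collections met between all neighbours in this order for which ranges could be formed. No Gsdmd count was found in 129 Paneth-like cells, which allows a level of up to 20.8 CPM (3 counts). The B or plasma-like and T or NK-like clusters gave 42.9 and 41.9 CPM, above the stem-like and cycling-like values, from 10 and 6 counts. Thinned to 500 counts, 9.23% of enterocyte-like cells and 2.77% of cluster 4 had Gsdmd, against 2.06% of B or plasma-like and 0.741% of T or NK-like cells; unthinned, the shares were 31.8%, 6.41%, 4.22% and 3.97%. In cluster 6 the shares were 2.30% thinned and 11.1% unthinned. By CPM, Gsdmd in clusters 4 and 6 was thus near the level of the lymphocytes, while the unthinned share of cluster 6 was above theirs. The lymphocytes were taken as a background for the Gsdmc genes only, so this does not make Gsdmd in clusters 4 and 6 background. Along the 6 parts of the absorptive cells Gsdmd stood at 21.5, 12.1, 12.6, 29.6, 65.0 and 184 CPM, and part 6 was above part 5 in 6 of 6 collections.

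Gsdmc3 was too sparse to order. Its largest counts were 23 in cluster 6, 21 in cluster 11 and 14 each in clusters 2 and 4. Of the summed Gsdmc2 and Gsdmc4 counts, Gsdmc2 made up 39.8% (95% exact Clopper-Pearson interval 38.0 to 41.6, counting error only). The share was 40.4% in cluster 4, 40.5% in cluster 6, 39.6% in cluster 11 and 40.9% in stem-like cluster 2. It was 30.04% (24.7 to 35.9) in the enterocyte-like cluster and 60.2% (50.1 to 69.7) in the low-depth cluster 1. Among collections it ran from 36.0% in knockout 2 to 52.8% (42.9 to 62.5) in flox 2.

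Gsdmc2 and Gsdmc4 were often found in the same cells. Among 651 epithelial cells with Gsdmc2, 52.1% also had Gsdmc4, against 12.6% of the 3851 without it. Gsdmd was found in 13.1% and 7.76% of the same cells. Deep cells hold more of every gene, and after thinning to 500 counts the shares with Gsdmc4 were 12.7% (26 of 204) and 4.96%. The thinned shares with Gsdmd were 1.47% (3 of 204) and 2.46% (100 of 4070), in the reverse order. Within clusters 4 and 6 the thinned shares with Gsdmc4 were 14.8% (13 of 88) and 12.7% (93 of 730), on few positive cells. Over 15 clusters the log2 levels of Gsdmc2 and Gsdmc4 had a Pearson r of 0.91 as a description, while Gsdmc2 and Gsdmd had -0.22; the clusters share libraries and differ in depth.

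By cell cycle state, scored from 42 S phase and 51 G2/M genes, epithelial cells called G1 held 196 CPM of Gsdmc4, with collections from 69.5 to 319 CPM. G2/M cells held 141 CPM, from 43.6 to 210 CPM, and S phase cells 70.5 CPM, from 16.6 to 149 CPM. S phase was below G1 in 6 of 6 collections, and G2/M was below G1 in 5 of 6. Gsdmc2 stood at 116 CPM in G1, 104 CPM in G2/M and 45.8 CPM in S phase, and G1 exceeded G2/M in only 3 of 6 collections. Gsdmd stood at 81.9 CPM in G1, 19.2 CPM in G2/M and 22.0 CPM in S phase, with G1 above G2/M in 6 of 6 collections.

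Phase and cluster went together: of 1930 G1 cells, 496 were in the enterocyte-like cluster, 395 in cluster 4 and 274 in cluster 6, while 188 and 156 of 554 S phase cells were in stem-like clusters 2 and 5. Of the G1 calls, 1237 lay within 0.05 score units of the cut, so the calls mark ranges. Within cluster 4, G1 cells held 365 CPM of Gsdmc4 and G2/M cells 233 CPM. Within cluster 6 the values were 344 and 262 CPM. Only 2 collections had enough cells of both states in either cluster, and both had more in G1. Gsdmc2 differed less, at 240 and 194 CPM in cluster 4 and at 221 and 218 CPM in cluster 6.

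When epithelial cells were instead put in 3 equal groups by their share of cell cycle list counts within depth bins, Gsdmc4 stood at 192, 190 and 86.5 CPM from the lowest to the highest group. Gsdmc2 stood at 116, 125 and 67.3 CPM and Gsdmd at 94.4, 26.8 and 19.0 CPM. The group with the highest share was below both others for these 3 genes in 6 of 6 collections. The middle group held Gsdmc2 and Gsdmc4 near their level in the lowest, while Gsdmd was 3.52-fold lower there than in the lowest.

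Barcode depth changed the pooled levels less than cluster did. Gsdmc4 went from 112 CPM at 600 to 1200 counts to 130 CPM at 1200 to 2400 and 173 CPM above 2400 counts. Gsdmc2 stood at 88.8, 93.5 and 107 CPM and Gsdmd at 53.3, 55.2 and 40.4 CPM. The 565 epithelial cells under 600 counts gave 76.1 CPM of Gsdmc4, 118 CPM of Gsdmc2 and 34.6 CPM of Gsdmd, from 22, 34 and 10 counts. Gsdmc4 was thus lowest and Gsdmc2 highest in the shallowest cells, and Gsdmc2 and Gsdmd had no steady order with depth. Within cluster 4 the same bins gave 341, 363 and 349 CPM of Gsdmc4. Within cluster 6 they gave 256, 326 and 336 CPM. In the enterocyte-like cluster Gsdmd was at 303, 224 and 142 CPM, lower in the deeper of these bins. Its 28 cells under 600 counts gave 196 CPM of Gsdmd, from 3 counts, below the next bin. Cells with under 600 counts gave 108 CPM of Gsdmc4 in cluster 4, from 4 counts.

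**Figure D3:**
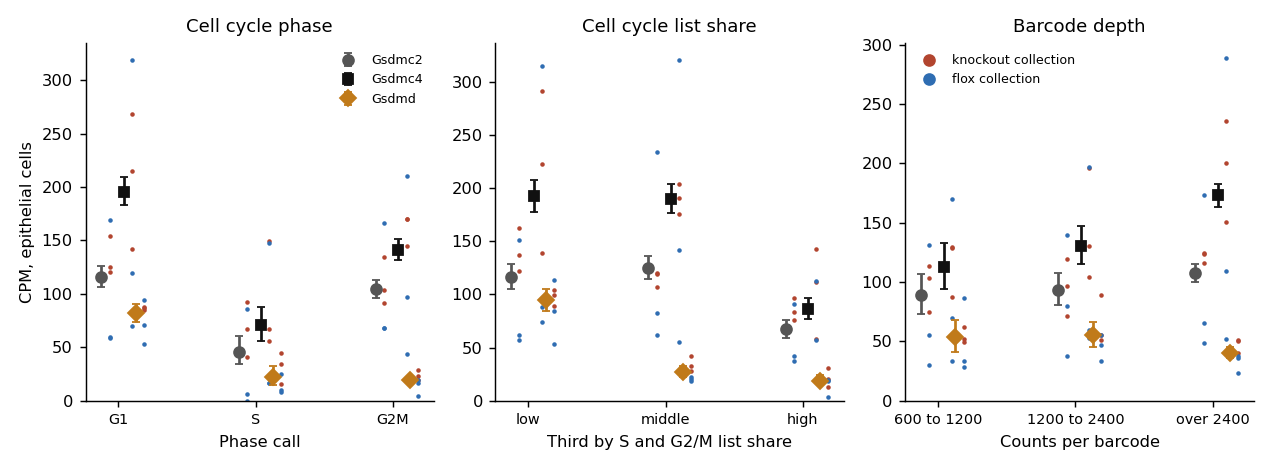
CPM in epithelial cells (y axes) by phase call, by 3 groups of cell cycle list share and by counts per barcode (x axes). Large symbols pool all collections with 95% Poisson intervals (Gsdmc2 circles, Gsdmc4 squares, Gsdmd diamonds) and small points are single collections (red knockout, blue flox); in the group with the highest share Gsdmc4 is at 86.5 CPM against 192 CPM in the lowest.

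Genes whose level followed the summed Gsdmc genes over the 15 clusters were sought among 6091 genes with at least 20 CPM, by Pearson r of log2(CPM + 10). The 8 highest were Pgd (r = 0.88), an enzyme of the pentose phosphate pathway, Ccz1, Car4, a carbonic anhydrase, Slc28a3, a nucleoside transporter, Cyp2s1, Adk, adenosine kinase, Vstm5 and Chp2 (r = 0.85). Car4 stood at 23.3 CPM in stem-like cluster 2, 142 CPM in cluster 11, 297 CPM in clusters 4 and 6 alike and 297 CPM in the enterocyte-like cluster, so it lacked the fall seen for Gsdmc4 in the last. Vstm5 stood at 10.4, 37.4, 75.1, 75.1 and 38.8 CPM in the same clusters and did fall. For Gsdmd the 8 highest were Il10rb (r = 0.89), a chain of the interleukin-10 receptor, Riok3, Ddhd2, Coro7, Hip1r, Fbxo25, Arhgap27 and Por (r = 0.79). Il10rb went from 12.9 CPM in cluster 2 to 55.7 CPM in the enterocyte-like cluster.

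Among the proteases known to cut gasdermins, the 3 highest were Casp1 (290 CPM), Gzma (191 CPM) and Casp4 (82.1 CPM). Casp1 stood at 203 CPM in stem-like cluster 2, 476 and 430 CPM in clusters 4 and 6 and 499 CPM in the enterocyte-like cluster. Gzma, a protease of cytotoxic lymphocytes, stood at 14388 CPM in the T or NK-like cluster and at no more than 31.4 CPM in the absorptive clusters. Of the inflammasome genes, the adaptor Pycard was highest in cluster 4 at 2538 CPM against 1224 CPM in cluster 2, and the sensor Nlrp6 highest in cluster 6 at 364 CPM. Il18, whose product is a cargo of gasdermin pores, went from 5.95 CPM in cluster 2 to 92.7 and 130 CPM in clusters 4 and 6 and 245 CPM in the enterocyte-like cluster, where Gsdmd was also highest. The alarmin gene Hmgb1 ran the other way, from 2697 to 337 CPM. The membrane repair genes Chmp2a, Chmp4b and Chmp3 stayed between 151 and 313 CPM in the stem-like cluster 2, clusters 4 and 6 and the enterocyte-like cluster.

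The genotype comparison asked whether loss of Ptger4 in the epithelium went with other gasdermin levels. Over all kept cells Gsdmc2 stood at 111, 114 and 108 CPM in the knockout collections and at 56.6, 55.4 and 159 CPM in the flox collections. Gsdmc4 stood at 137, 202 and 166 CPM in knockout and at 92.7, 49.6 and 245 CPM in flox. For both genes the knockout collections lay between the flox collections 1 and 2, which were low, and flox 3, which was high. Pooled levels cannot tell fewer cells with a gene from less of its RNA per cell.

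Gsdmd stood at 50.9, 51.4 and 49.7 CPM in knockout and at 43.4, 28.2 and 38.65 CPM in flox, and the groups did not overlap. How many of all genes lack overlap in the same way is not given, here or for the comparisons below. Gsdmc3 stood at 12.1, 11.7 and 9.95 CPM in knockout and at 7.62, 16.5 and 13.2 CPM in flox, from 16 to 28 counts each. No member passed the test between genotypes, edgeR's quasi-likelihood test on the 2 sums per genotype with Benjamini-Hochberg adjustment over 10555 genes, of which 0.00947% (1 gene) passed. The log2 difference, knockout minus flox, was 0.09 (SE 0.34) for Gsdmc2, -0.0046 (SE 0.36) for Gsdmc3, 0.08 (SE 0.35) for Gsdmc4 and 0.41 (SE 0.21) for Gsdmd, all with an adjusted p of 0.9996. Gsdmd had an unadjusted p of 0.0737 in that edgeR test, and 235 genes had one under 0.05. With the 6 single collections as samples the values were 0.33 for Gsdmc2 and 0.41 for Gsdmc4, and with collection number as a block 0.48 and 0.63; none passed. The 4 sums come from 2 biological replicates per genotype, which limits what the test can call.

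**Figure D4:**
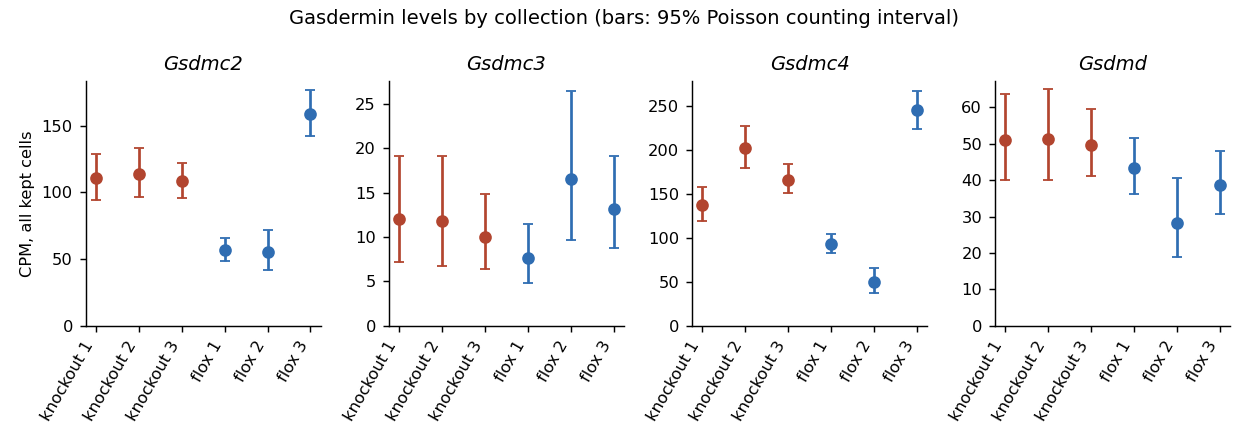
CPM of the 4 genes over all kept cells (y axes) in each collection (x axes; red knockout, blue flox), with 95% Poisson counting intervals. Flox 3 is the highest collection for Gsdmc2 (159 CPM) and Gsdmc4 (245 CPM), and the 3 knockout collections of Gsdmd, 49.7 to 51.4 CPM, lie above the 3 flox collections.

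Flox 3 decided the Gsdmc comparison. Without it, flox rests on the sum of flox 1 and flox 2 alone. The edgeR log2 difference then became 1.09 for Gsdmc4 and 1.02 for Gsdmc2. That lone flox sum is assumed to vary like the knockout sums, so no p-value is given. Flox 3 is the collection of the second biological replicate, has female Xist counts and belongs to set B. The 3 collections of set B gave 202, 166 and 245 CPM of Gsdmc4 and those of set A 137, 92.7 and 49.6 CPM, without overlap. For Gsdmc2 set B gave 114, 108 and 159 CPM and set A 111, 56.6 and 55.4 CPM, and the sets overlapped. Within set A the log2 ratio of knockout over flox was 0.97 for Gsdmc2 and 0.75 for Gsdmc4, and within set B it was -0.53 and -0.45. For Gsdmd it was 0.37 in set A and 0.38 in set B. Clusters 4 and 6 held 14.2% of the cells in flox 1, 17.5% in flox 2 and 16.7% in flox 3. In knockout they held 16.8% to 21.6%. Whether the mix of cells bears on the Gsdmc levels was not tested. In an edgeR fit of the 6 single collections with set as a term, added after the data were seen, set B minus set A was 1.07 (SE 0.28) on the log2 scale for Gsdmc4, with an adjusted p of 0.528. It was 0.73 (SE 0.27, adjusted p = 0.660) for Gsdmc2 and 0.0023 for Gsdmd. This edgeR fit takes collections 1 and 2 of a genotype, which share a biological replicate, as separate samples. Its standard errors and p-values may therefore be too small. Biological replicate, sex and set cannot be told apart in flox, where collection 3 is the only one of its kind for each.

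Within cell classes the same edgeR test gave no call for the members that passed its low-count filter, Gsdmc2 and Gsdmc4 in each class and Gsdmd in enterocyte-like cells, goblet-like cells and cluster 6. In stem-like cells Gsdmc4 stood at 109, 97.3 and 54.0 CPM in knockout and at 32.6, 19.7 and 81.1 CPM in flox. Gsdmc2 stood at 69.0, 61.4 and 48.0 CPM and at 15.7, 45.9 and 52.1 CPM. The groups overlapped for both genes through flox 3. The log2 differences in stem-like cells were 0.90 (SE 0.41) for Gsdmc4 and 0.88 (SE 0.38) for Gsdmc2, with adjusted p of 0.9995 by edgeR, where 0.0161% of the genes tested passed. Without flox 1, the stem-like difference of Gsdmc2 was 0.28. Without flox 3, when flox rests on a lone sum, Gsdmc4 was at 1.58 in stem-like, 2.004 in goblet-like and 2.41 in enterocyte-like cells.

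In cycling-like cells the differences were 0.17 (SE 0.32) for Gsdmc2 and 0.14 (SE 0.30) for Gsdmc4 (0.0508% of genes passed). Cluster 4 gave 0.25 (SE 0.32) and 0.27 (SE 0.29), with 0.102% passing, and cluster 6 gave 0.33 (SE 0.30) and 0.02 (SE 0.27), with 0.155% passing. Gsdmd in cluster 6 differed by -0.25 (SE 0.54). In enterocyte-like cells, where Gsdmd is highest, its knockout collections lay above its flox collections without overlap. As these cells hold 47.6% of all Gsdmd counts, this is not independent of the comparison over all kept cells. The log2 difference of Gsdmd in enterocyte-like cells was 0.27 (SE 0.25) with 0.0218% of genes passing. Gsdmc2 and Gsdmc4 differed there by -0.03 (SE 0.59) and -0.15 (SE 0.61). Goblet-like cells gave -0.50 (SE 0.59) for Gsdmc2, 0.05 (SE 0.52) for Gsdmc4 and 0.02 (SE 0.52) for Gsdmd, with 0.0167% passing.

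**Figure D5:**
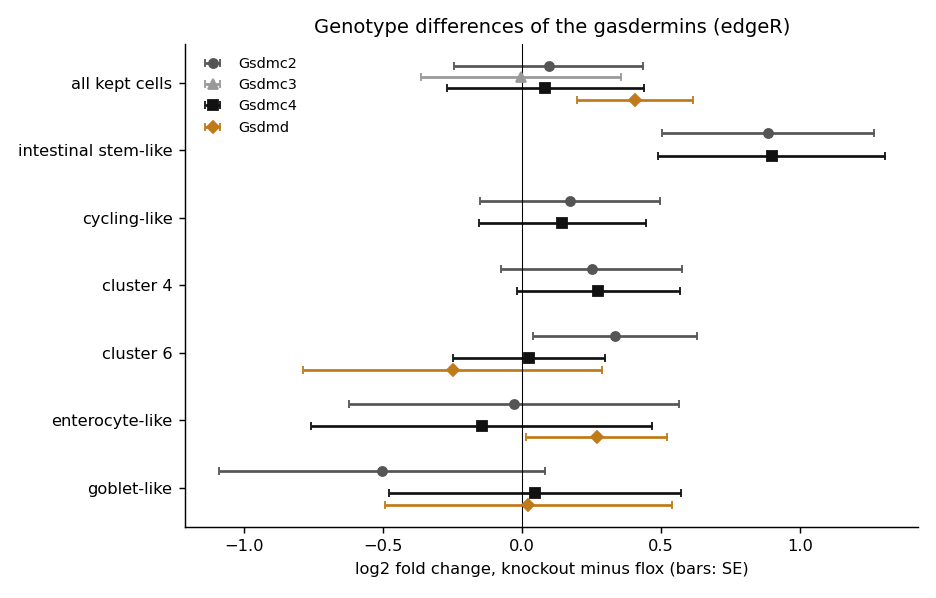
The log2 fold change between genotypes, knockout minus flox (x axis), of each gasdermin that passed the low-count filter, over all kept cells, in 4 cell classes and in clusters 4 and 6 (y axis); bars are standard errors of the edgeR fit. The stem-like differences of Gsdmc2 (0.88) and Gsdmc4 (0.90) are the largest and none passed the test after adjustment.

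The related genes gave no call between genotypes either. Of all 10555 genes tested, 0.00947% (1 gene) passed, so no call is the usual outcome for lists this short. None of 8 gasdermin proteases tested passed, and their median log2 difference was 0.04, beside 0.0019 over all genes tested. None of 11 inflammasome sensor and adaptor genes (median 0.07), 4 inflammasome and alarmin outputs (median -0.07), 14 membrane repair genes (median 0.02), 6 type 2 cytokine response genes (median 0.37), 6 TGF-beta and SMAD genes (median -0.12) or 7 interferon response genes (median 0.05) passed. The same held for 42 S phase genes (median -0.09) and 51 G2/M genes (median -0.14). Of the type 2 response genes, Ang4, an antimicrobial ribonuclease, stood at 212, 219 and 375 CPM in knockout and at 94.7, 136 and 340 CPM in flox, with flox 3 again the highest flox collection. Stat6, which carries the signal of type 2 cytokines, stood at 56.0 to 64.3 CPM in knockout and 46.7 to 76.8 CPM in flox, and Il13ra1 at 37.4 to 43.1 and 22.4 to 44.4 CPM. Smad4, Smad7 and Smad2, of the TGF-beta pathway, had log2 differences of -0.10 (SE 0.19), -0.39 (SE 0.23) and -0.05 (SE 0.26). Irf2, known to drive Gsdmd transcription, stood at 91.8 to 125 CPM in knockout and 97.2 to 143 CPM in flox.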

How the data were processed

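Each Drop-seq collection has 1 deposited table of whole-number counts, genes by barcodes, which the authors left without normalization, as the values show. STAR 2.6 and mm10 are named per the submitters' processing notes; how molecules were collapsed was not found in the sources used here. Barcodes passed with at least 300 genes and a mitochondrial share of at most 25% (1028412 to 3020164 counts and 473 to 1053 barcodes per collection). They were clustered with scanpy 1.11.5 and leidenalg 0.10.2 on 2000 variable genes, 30 components and resolution 1, leaving out gasdermin and mitochondrial genes. A cluster was named from its markers when at least 3 were enriched 1.5-fold and 2 stood among its 10 leading genes or 50% were enriched. The transit and early enterocyte list was left out of naming, and 4 clusters stayed unnamed. Names were rebuilt here, so they may differ from the submitters' own. No doublet caller was run; the 27 barcodes over 20000 counts were left out as an alternative.

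Levels are summed counts scaled to 1000000 (CPM). Counts were summed per biological replicate, read from the sample codes, and compared with edgeR 4.0.16. Settings were quasi-likelihood, TMM, minimum count 10, Benjamini-Hochberg adjustment over all genes tested and a threshold of 0.05. The main edgeR fit was tested on simulated counts. With 2 biological replicates per genotype, the p-values rest on few samples. Intervals are 95% and cover counting error only, and a count of 0 allows up to 3 counts. DESeq2 1.42.0, single collections, replicate blocks, other filters, thinning to 500 counts, other clusterings and leaving out each collection were alternatives. Collections differed beyond sampling noise, so none was treated as a repeat of another. The members and gene lists were chosen with earlier results of these data known. Named were the 4 members, other gasdermins with counts, the 3 genes of highest CPM in each list and the 8 genes most like a member.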

Additional observations from a re-analysis of the deposited data

Results flagged for a closer look

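The log2 ratio of knockout over flox had opposite signs in the biological replicates for Gsdmc2 and Gsdmc4. For Gsdmc2 it was 0.99 in biological replicate 1 and -0.55 in biological replicate 2. For Gsdmc4 it was 1.04 in biological replicate 1 and -0.56 in biological replicate 2. Both knockout collections of replicate 1 lay above both flox collections of replicate 1, and the knockout collection of replicate 2 lay below the flox collection of replicate 2. The difference between the replicates was not tested. Gsdmd, by contrast, gave 0.37 and 0.36.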

How the results depend on the processing

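Values are log2 differences, knockout minus flox, unless CPM is named. Over all kept cells, the near-zero Gsdmc3 value changed sign to 0.041 without barcodes over 20000 counts and to 0.12 with at least 600 genes. It was 0.14 with at most 15% mitochondrial counts and 0.11 without shared barcodes. With Gsdmc2, Gsdmc3 and Gsdmc4 added up as 1 row, that summed row gave 0.070. In enterocyte-like cells, single collections as samples turned Gsdmc2 to 0.10 and Gsdmc4 to 0.13. Without shared barcodes, goblet-like Gsdmd was -0.025 and cluster 6 Gsdmc4 -0.095. The cause was not tested.

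Biological replicate numbers are shared by both genotypes, and the deviations of same-numbered sums had r = 0.32. With 2 sums per genotype the deviations mirror each other, so this is a single value and cannot decide whether the numbers pair the mice. Biological replicate 2 had the high Xist counts in both genotypes, 1584 in knockout 3 and 1457 in flox 3. The main test left the number out. With the number as a replicate block, Gsdmc2 was 0.25, Gsdmc3 0.0073, Gsdmc4 0.27 and Gsdmd 0.41 over all kept cells, and enterocyte-like Gsdmc2 was 0.086 and Gsdmc4 0.23. None of these passed the test, and 3 genes in place of 1 passed among all tested.

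Leaving out each collection in turn gave these ranges. Over all kept cells they were 0.015 to 1.02 for Gsdmc2, -0.40 to 0.21 for Gsdmc3, -0.046 to 1.09 for Gsdmc4 and 0.34 to 0.57 for Gsdmd. Stem-like cells gave 0.28 (without flox 1) to 1.35 for Gsdmc2 and 0.71 to 1.58 for Gsdmc4, and cluster 4 gave 0.016 (without flox 1) to 0.95 and 0.046 (without knockout 2) to 1.17. Cycling-like cells gave -0.22 to 0.68 for Gsdmc2. Enterocyte-like cells gave -0.41 to 1.79 for Gsdmc2 and -0.46 to 2.41 for Gsdmc4. Goblet-like cells gave -0.77 to 1.77 for Gsdmc2, -0.35 to 2.004 for Gsdmc4 and -0.50 to 0.41 for Gsdmd. Cluster 6 gave -0.27 to 0.44 for Gsdmc4. The highest Gsdmc values came without flox 3. Over 18 alternatives on all kept cells the adjusted p of Gsdmd by edgeR or DESeq2 was at least 0.99.

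A coarser clustering at resolution 0.5 put Gsdmc2 at 80.9 CPM in stem-like, 147 CPM in enterocyte-like and 117 CPM in unnamed clusters. Gsdmc4 was at 123, 252 and 111 CPM in the same classes, and Gsdmd at 95.6 CPM in enterocyte-like and 24.0 CPM in unnamed clusters. As the mean of each cell's share, enterocyte-like Gsdmd was 212 CPM.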

Other observations

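Fabp6, a bile acid carrier of the distal small intestine, was among the leading genes of cluster 4. Cells of cluster 4 with and without Fabp6 held 335 and 355 CPM of Gsdmc4, and those of cluster 6 held 328 and 314 CPM. Gsdmc2 was at 263 and 152 CPM in cluster 4 and at 218 and 230 CPM in cluster 6. Cells with Fabp6 were deeper, with a median of 1312 against 975 counts in cluster 4 and 2616 against 1022 counts in cluster 6. This division was chosen after the data were seen.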
